A study of Mus musculus with 8 samples.

Results

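Interleukin-7 (IL-7) and thymic stromal lymphopoietin (TSLP) are related cytokines that share a receptor chain, and the genes of their receptors and of both ligands were examined in Ly6C-high myeloid cells of irradiated mouse tumours. The 5 genes are Il7r, Il2rg, Crlf2, Il7 and Tslp. They were chosen by name around Il7r, whose levels in the same comparison of irradiated and sham mice were already known, so the differences of these 5 genes are given as a description and without a test. A row that the platform annotation maps to a single symbol was found for 4 of the 5, each with 1 row, among 22180 genes in all. Il2rg had no such row and is not analysed here.

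The cells came from subcutaneous tumours in female C57BL/6 mice, 8 weeks old, that had grown for 14 days from line 152. This is a single cell line taken from a spontaneous pancreatic tumour of a KPC mouse (KrasLSL-G12D/+, Trp53LSL-R172H/+, Pdx1-Cre), in which Cre under the Pdx1 promoter switches on both mutant alleles in the pancreatic lineage. The alleles belong to the tumour cells and not to the host cells that were sorted. In 4 mice the tumour received 20 Gy and in 4 it received a sham treatment, and 1 day later CD45+ CD11b+ Ly6Chi cells were sorted and 1 Affymetrix array was hybridised per mouse. Levels below are log2 array signals, and sets of 4 values are in the order of mice 1 to 4 of a group. Array medians lay between 4.68 and 4.73, and any 2 arrays correlated at 0.976 to 0.988. The sort markers Ptprc (CD45), Itgam (CD11b) and Ly6c2 (Ly6C) stood at 10.68 or more on all 8 arrays. Lymphocyte and granulocyte genes were also present at uneven levels: Cd3d ranged from 5.70 to 10.14 and the neutrophil granule gene Camp from 3.08 to 10.10, with sham mice 2 and 3 highest for both. Since RNA was taken from a whole sorted pool, fewer cells of a type and less RNA per cell cannot be told apart.

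The receptor for IL-7 pairs the chain encoded by Il7r (CD127) with the common gamma chain encoded by Il2rg, which also serves the receptors for IL-2, IL-4, IL-9, IL-15 and IL-21. The receptor for TSLP pairs the same Il7r chain with the chain encoded by Crlf2. Both receptors signal through Janus kinases and the transcription factor STAT5. IL-7 is best known as a survival factor of lymphocytes, and TSLP, made by epithelial and stromal cells, acts on dendritic cells and other myeloid cells.

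The start regions of both TSLP receptor chain genes are shown because a group of factors known to act on the Il7r locus is described further on. Of the 5 genes, 3 had an entry in the RefSeq promoter table of build GRCm38.p6. The 250 bases before each start are printed 5′ to 3′ on the gene's own strand, with capitals marking any match to GGAAGT, a core bound by ETS factors such as PU.1 and GABP, or to GTAAACA, the core bound by FOXO factors, on either strand. The Il7r window is chr15:9529877-9530126 and the Crlf2 window chr5:109558994-109559243, both on the minus strand.
Il7r: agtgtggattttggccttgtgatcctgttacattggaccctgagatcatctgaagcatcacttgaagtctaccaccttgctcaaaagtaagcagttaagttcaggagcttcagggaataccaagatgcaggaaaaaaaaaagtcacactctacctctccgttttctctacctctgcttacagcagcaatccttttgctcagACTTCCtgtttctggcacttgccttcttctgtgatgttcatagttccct
Crlf2: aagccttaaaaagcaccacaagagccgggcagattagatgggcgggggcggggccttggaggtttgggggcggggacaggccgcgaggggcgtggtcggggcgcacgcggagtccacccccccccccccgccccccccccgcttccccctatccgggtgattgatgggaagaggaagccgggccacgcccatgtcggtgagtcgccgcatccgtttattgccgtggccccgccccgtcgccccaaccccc
The Il7r window held 1 match, to GGAAGT read on the opposite strand, from 49 to 44 bases before the start, and the Crlf2 window held neither motif. Among 32851 promoter windows of this length, 19.7% held GGAAGT and 3.17% held GTAAACA. A match describes letters only and is not evidence of binding.

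Il7r was lower in the sorted cells of every irradiated mouse than in those of any sham mouse. Sham levels were 9.19, 9.28, 9.42 and 9.45, and irradiated levels 7.64, 8.95, 8.96 and 8.33. The sham mice lay close together, and the irradiated mice spread widely, with mouse 1 lowest, mouse 4 next and mice 2 and 3 nearest to the sham mice. The group means were 9.33 ± 0.12 and 8.47 ± 0.63 (SD, n = 4 each), a difference of -0.87 ± 0.26 (SE), or 1.82-fold lower on the linear scale. Against the sham mean, the level was 3.24-fold lower in irradiated mouse 1, 2.01-fold in mouse 4, 1.31-fold in mouse 2 and 1.3-fold in mouse 3. The gap between the lowest sham mouse and the highest irradiated mouse was 0.23. Groups without overlap and lower after irradiation were seen for 2.56% of all genes, and 0.198% of genes had a more negative difference than Il7r. An SD in irradiated mice as large as that of Il7r was seen in 1.84% of genes, whereas 74.2% of genes had an SD in sham mice as large as its own. In limma across the whole array, 0 of 22180 genes (0% called) passed an adjusted p of 0.05. Il7r differed by -0.59 without irradiated mouse 1 and by -1.03 without irradiated mouse 2 or 3.

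**Figure D1:**
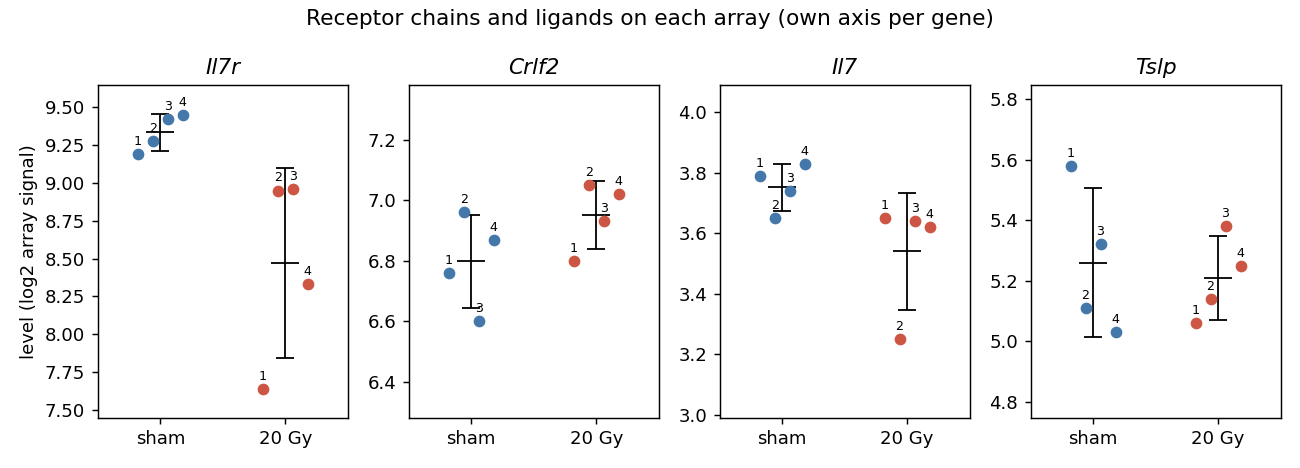
Levels of Il7r, Crlf2, Il7 and Tslp on each array (log2 array signal, own axis per gene), with points numbered by mouse, sham in blue and 20 Gy in red; the horizontal mark is the mean and the bar the SD of 4 mice. Only for Il7r do the groups not overlap, with sham mice at 9.19 to 9.45 and irradiated mice at 7.64 to 8.96.

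Because Il7r is widely used as a lymphocyte gene, it was set beside Cd3g, a chain of the T cell receptor complex, and Nkg7, a granule gene of NK and cytotoxic T cells. Sham levels of Cd3g were 5.53, 9.53, 9.66 and 6.36, and irradiated levels 7.70, 4.67, 5.74 and 7.89. Those of Nkg7 were 6.45, 9.76, 9.52 and 6.78, and then 8.98, 6.30, 6.97 and 8.65. Both genes were high in sham mice 2 and 3 and intermediate in irradiated mice 1 and 4, and their groups overlapped. Il7r did not share this order: the sham mice differed by 4.13 at most in Cd3g and by 0.26 at most in Il7r, and irradiated mice 1 and 4, with more Cd3g and Nkg7 than irradiated mice 2 and 3, had less Il7r. As a description over the 8 arrays, the Pearson correlation of Il7r was 0.00 with Cd3g (Spearman's rho 0.24) and -0.22 with Nkg7 (rho 0.10). Without sham mice 2 and 3, the arrays farthest from the median of either gene, r was -0.71 and -0.90 over 6 arrays, so the pooled values rest on those mice. The sign differed between the groups: over the 4 sham arrays r was 0.31 with Cd3g and 0.20 with Nkg7, and over the 4 irradiated arrays -0.83 and -0.91.

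Whole lists of lymphocyte markers were compared in the same way. The mean of the 9 measured of 13 T cell markers ran from 5.49 to 8.01 in sham and from 5.36 to 6.63 in irradiated mice, and that of the 12 NK cell markers from 5.43 to 7.47 and from 5.33 to 6.69. All 9 T cell markers and 11 of 12 NK cell markers were lower on average in irradiated mice, but without sham mice 2 and 3 all 9 and 10 of 12 were higher. The Il7r difference was -0.85 ± 0.35 (SE) without those mice and -0.98 ± 0.26 with the mean of both lists as a covariate. Markers of innate lymphoid cells, which also carry CD127, had 8 of 11 measured and means of 4.73 to 5.27 in sham and 4.76 to 4.95 in irradiated mice. Of these 8 markers 6 were lower and 2 higher in irradiated mice, and 4 were lower and 4 higher without sham mice 2 and 3. Il5, a type 2 cytokine gene with a low signal, stood at 3.87 to 3.97 in sham and 3.59 to 3.80 in irradiated mice without overlap. Groups without overlap on the lower side were seen for 2.56% of all genes. The Il5 difference was -0.21 ± 0.09 (SE; adjusted p = 0.819 in limma). Il18r1, an IL-18 receptor chain, differed by -0.72 ± 0.50 and was highest in sham mice 2 and 3. The defining factor Gata3 stood between 4.69 and 5.07 on all 8 arrays, close to 4.70, the median of all rows. Whether so low a signal tracks the content of innate lymphoid cells was not tested. The part of these cells in the Il7r difference was not tested.

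The mean level of neutrophil markers was lowest on the same 2 arrays as Il7r, but not every marker shared this order. The mean of the 11 neutrophil markers was 7.88, 7.82, 8.79 and 7.63 in the sham group and 6.54, 7.43, 8.11 and 6.64 in the irradiated group, so irradiated mice 1 and 4 were lowest for both. Of the 11 markers 9 were lower and 2 higher in irradiated mice, with a median difference of -0.81 against -0.03 over all genes. Without sham mice 2 and 3 again 9 were lower and 2 higher, with a median of -0.40. Irradiated mouse 3 had a higher neutrophil mean than sham mice 1, 2 and 4 and less Il7r than any sham mouse. As a description over 8 arrays, Il7r correlated with this mean at r = 0.83 (rho 0.67), at 0.29 over the sham and 0.85 over the irradiated arrays. Without irradiated mice 1 and 4, the arrays farthest from the median of the neutrophil mean, r was 0.37, so the relation rests on those mice. Chosen after their values were seen, S100a9 and S100a8, calcium-binding proteins abundant in neutrophils and inflammatory monocytes, had an r of 0.83 and 0.81 with Il7r, whereas the granule gene Camp had 0.48, Csf3r, the G-CSF receptor gene, 0.27 and the neutrophil collagenase gene Mmp8 -0.19. The other measured markers had an r from 0.31 (Mmp9) to 0.74 (Retnlg), and only that of Mmp8 was negative. Mmp8 was highest, at 9.10, in irradiated mouse 1, where Il7r was lowest, and Camp was as low in sham mice 1 and 4 (3.08 and 3.34) as in irradiated mice. Sham levels of Cxcr2 were 9.72, 6.95, 7.40 and 9.35, an order unlike that of Camp. Its irradiated levels were 6.32, 9.05, 10.04 and 6.69, lowest in mice 1 and 4 as for Il7r. Sham levels of S100a9 were 12.09, 11.16, 11.81 and 11.75, and irradiated levels 9.93, 11.68, 12.10 and 9.87. With the neutrophil mean as a covariate, which was added once the data had been seen, the Il7r difference was -0.43 ± 0.25 (SE). The part of neutrophil RNA in the Il7r difference was not tested beyond this value.

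Ccr7, the homing receptor of mature dendritic cells and naive T cells, had a pattern close to that of Il7r. Its sham levels were 7.22, 6.76, 7.69 and 8.05 and its irradiated levels 5.99, 7.03, 6.68 and 5.98, again lowest in irradiated mice 1 and 4, and the groups overlapped. Its r with Il7r over the 8 arrays was 0.85 (rho 0.86), 0.77 over the sham and 0.85 over the irradiated arrays. The 10 measured of 11 dendritic cell markers, Ccr7 among them, were also taken as a list. Their mean ran from 6.80 to 7.40 in sham and from 6.71 to 6.96 in irradiated mice, with an r of 0.55. That mean includes Ccr7 itself, which had the highest r of the list. The other measured markers had an r from -0.33 (Cd209a) to 0.40 (Siglech). Fscn1, an actin-bundling protein of mature dendritic cells, had an r of 0.08.

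**Figure D2:**
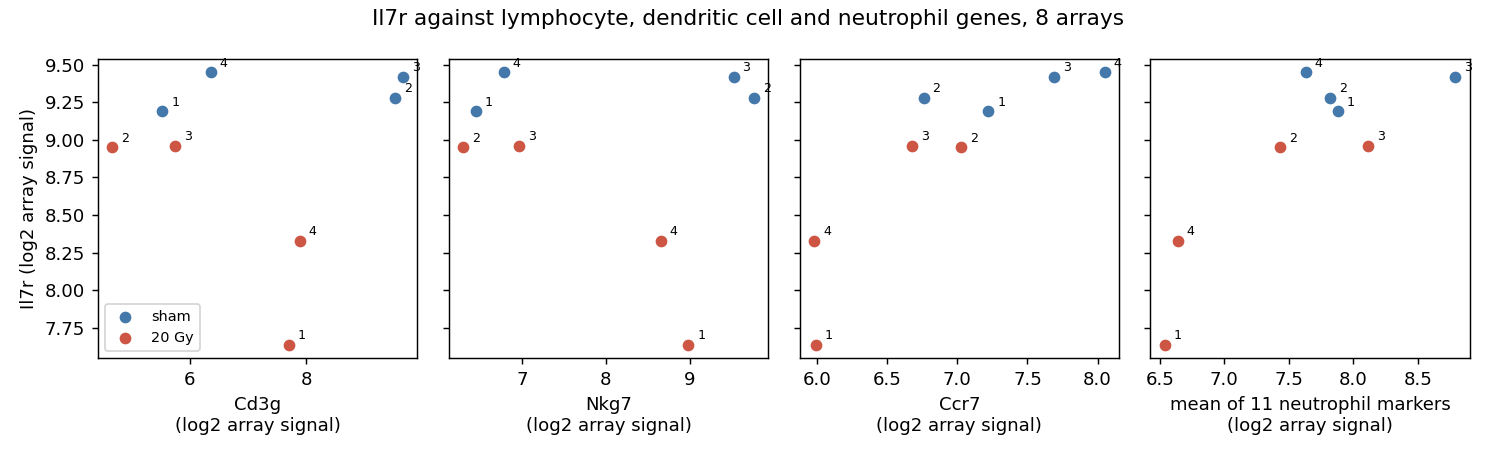
Il7r level (y axis) against Cd3g, Nkg7, Ccr7 and the mean of 11 neutrophil markers (x axes), all log2 array signals; each point is 1 array, numbered by mouse, sham in blue and 20 Gy in red. Irradiated mice 1 and 4 are lowest in Il7r, Ccr7 and the neutrophil mean but not in Cd3g or Nkg7, and r is 0.00, -0.22, 0.85 and 0.83 from left to right.

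Crlf2, the TSLP-specific chain, did not share the Il7r pattern. Sham levels were 6.76, 6.96, 6.60 and 6.87, and irradiated levels 6.80, 7.05, 6.93 and 7.02. The groups overlapped, with irradiated mouse 1 inside the sham range and the other 3 irradiated mice above at least 3 of the 4 sham mice. The means were 6.80 ± 0.16 and 6.95 ± 0.11 (SD, n = 4 each), and the difference was 0.15 ± 0.11 (SE; 95% interval -0.10 to 0.40). Its r with Il7r over the 8 arrays was -0.19. A difference this large in either direction was seen in 34.2% of all genes.

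The ligand genes gave low signals. Il7 measured 3.79, 3.65, 3.74 and 3.83 in the sham group and 3.65, 3.25, 3.64 and 3.62 in the irradiated group. The groups met at 3.65, and irradiated mouse 2 lay below the rest. The difference was -0.21 ± 0.12 (SE; 95% interval -0.47 to 0.05), or -0.11 without irradiated mouse 2. The Il7 row lay under 4.70, the median of all rows, on all 8 arrays, and signal over background was not tested. Tslp measured 5.58, 5.11, 5.32 and 5.03 in the sham group and 5.06, 5.14, 5.38 and 5.25 in the irradiated group, with full overlap. Its difference was -0.05 ± 0.14 (SE; 95% interval -0.36 to 0.25) and changed sign, to 0.05, without sham mouse 1.

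Among 13 other receptors and ligands of the gamma-chain family and of IL-13, all measured, 10 were lower and 3 higher in irradiated mice. The median difference was -0.10 against -0.03 over all genes. Il13 and its receptor gene Il13ra1, both lower, are on this list although IL-13 does not signal through the gamma chain. In limma, 0 passed the adjusted threshold and 0 had an unadjusted p under 0.05, where 4.03% of all genes did so on the lower side and 2.05% on the higher side. That split depended on scaling: of genes at an unadjusted p under 0.05, 66.3% were lower, and 47.7% after quantile normalization. Within the list, 8 were lower and 5 higher both after quantile normalization and with the neutrophil mean as a covariate. In either setting 1 gene, Il21r, had an unadjusted p under 0.05 in limma. Of all 22180 genes, 1265 and 1340 did so in these 2 settings. Il21r, the IL-21 receptor chain, lay between 8.33 and 8.52 in the sham group and measured 8.28, 9.05, 9.01 and 8.61 in the irradiated group, a difference of 0.33 ± 0.17 (SE), or 0.54 ± 0.19 with the neutrophil covariate. Il4ra, which with the gamma chain forms an IL-4 receptor, differed by -0.03 ± 0.12 and Il15ra by -0.02 ± 0.17. Il2rb, the beta chain of the IL-2 and IL-15 receptors and also one of the NK cell markers, differed by -0.70 ± 0.78 and was highest in sham mice 2 and 3, at 7.66 and 7.86. Il2ra differed by -0.21 ± 0.18, Il13ra1 by -0.15 ± 0.11 and the cytokine gene Il2, near the floor of the arrays, by -0.42 ± 0.27. The Il2 value rests on sham mouse 3, without which it was -0.09.

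The kinases and transducers downstream of both receptors had small differences. Of 20 listed genes 17 were measured, 13 lower and 4 higher, with differences from -0.21 to 0.11 and a median of -0.05, and 0 at an unadjusted p under 0.05. After quantile normalization 7 were lower and 10 higher. Jak1, the kinase bound to the Il7r chain, averaged 9.87 ± 0.17 without and 9.78 ± 0.12 with irradiation (SD, n = 4 each). Jak2, which serves the TSLP receptor, averaged 10.35 ± 0.09 and 10.44 ± 0.20. The STAT5 genes Stat5a and Stat5b differed by -0.12 ± 0.15 and -0.21 ± 0.15 (SE). With the neutrophil mean as a covariate they differed by -0.36 ± 0.16 and -0.42 ± 0.17. Both then had an unadjusted p under 0.05 in limma, as did 868 of all 22180 genes on the lower side. Of the list, 0 passed the adjusted threshold. Akt1, a survival kinase, differed by 0.11 ± 0.10. Shc1, an adaptor of growth factor receptors, stood at 7.80 to 7.88 in sham and 7.60 to 7.75 in irradiated mice without overlap. So did 2.56% of all genes on the lower side. The Shc1 difference was -0.17 ± 0.09 at an adjusted p of 0.826 in limma. The IL-7 receptor kinase gene Jak3 had no row with a single symbol and was not analysed here.

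Genes listed as STAT5 targets, survival and feedback genes differed in both directions. The list pools genes that STAT5 need not move the same way, such as the pro-death gene Bcl2l11. Its counts therefore do not measure STAT5 activity. All 16 listed genes were measured, 9 higher and 7 lower, with a median of 0.03 and 0 at an unadjusted p under 0.05. With the neutrophil mean as a covariate 7 were higher and 9 lower. Without sham mice 2 and 3 the counts were 8 and 8. In that last setting Ccnd2 had an unadjusted p under 0.05 in limma on the lower side, as did 957 of all 22180 genes. Cish, a feedback inhibitor that STAT5 induces, measured 9.81, 9.54, 9.58 and 9.87 in the sham group and 9.60, 9.97, 10.11 and 10.43 in the irradiated group. Irradiated mice 2 to 4 lay above all sham mice and irradiated mouse 1, the mouse with the least Il7r, within their range. Irradiated mouse 4, next lowest in Il7r, had the highest Cish level. The Cish difference was 0.33 ± 0.17 (SE; adjusted p = 0.822 in limma). The kinase gene Pim1 differed by 0.22 ± 0.16 and Myc by -0.26 ± 0.17. Gimap4, a lymphocyte GTPase gene, differed by -0.97 ± 0.70 and was highest in sham mice 2 and 3, at 8.89 and 8.73, the mice with the highest T cell markers.

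Genes that TSLP is known to raise in myeloid cells differed in both directions. All 12 listed genes were measured, 8 higher and 4 lower with a median of 0.07. In limma 0 passed the adjusted threshold, and 1 on either side had an unadjusted p under 0.05, where 2.05% of all genes did so on the higher and 4.03% on the lower side. Tnfsf4, which encodes OX40 ligand, was the higher one: its sham levels were 5.03, 4.23, 4.30 and 5.14 and its irradiated levels 5.64, 6.43, 7.71 and 6.94. The groups did not overlap, as for 1.12% of all genes on the higher side, and Tnfsf4 was 4.01-fold higher (SE 0.39 on the log2 scale; adjusted p = 0.624 in limma). Of the irradiated mice, mouse 1 had the least Tnfsf4 and the least Il7r, but mouse 4, next lowest in Il7r, had more Tnfsf4 than mouse 2. The r of Tnfsf4 with Il7r over the 8 arrays was -0.42. Ccr7 was the lower one, with a difference of -1.01 ± 0.31 (adjusted p = 0.819 in limma). Retnla, an alternative activation gene, differed by 0.76 ± 0.38, or 0.35 without irradiated mouse 3, and the costimulator gene Cd80 by 0.35 ± 0.18. The TSLP-induced chemokine genes Ccl17 and Ccl22, which attract CCR4-bearing T cells, differed by 0.21 ± 0.33 and -0.31 ± 0.52. Ccl22 stood at 9.60 and 10.01 in sham mice 1 and 4 and at 7.71 and 7.83 in sham mice 2 and 3. Without sham mice 2 and 3 the differences of Ccl17 and Ccl22 were -0.40 and -1.33, and 5 of the 12 genes were higher. With the neutrophil mean as a covariate 4 of the 12 were higher, and Ccr7 differed by -0.66 ± 0.36 and no longer had an unadjusted p under 0.05. Tnfsf4, Retnla (1.21 ± 0.44) and, on the lower side, the chemokine gene Ccl24 did. In that setting 1340 of all 22180 genes had an unadjusted p under 0.05 in limma, 868 of them lower.

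Of 16 transcription factors known to act on the Il7r locus 15 were measured, 10 lower and 5 higher, with a median of -0.09. In limma 0 passed the adjusted threshold and 1 had an unadjusted p under 0.05, on the higher side, where 2.05% of all genes had one. Without sham mice 2 and 3 the count was 0. The 1 gene was Foxo3, a forkhead factor of the stress response, with sham levels of 6.10, 6.18, 6.08 and 6.34 and irradiated levels of 6.32, 6.47, 6.88 and 6.52. Only sham mouse 4 reached the irradiated range, and the difference was 0.37 ± 0.13 (SE; adjusted p = 0.819 in limma). Foxo1, the forkhead factor that drives Il7r in lymphocytes, differed by -0.17 ± 0.15. Spi1, which encodes PU.1, the master factor of myeloid cells, averaged 9.95 ± 0.14 without and 10.01 ± 0.14 with irradiation (SD, n = 4 each). Ets1, a lymphocyte ETS factor, differed by -0.47 ± 0.30 and by 0.09 without sham mice 2 and 3, and Irf2 differed by -0.14 ± 0.13.

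**Figure D3:**
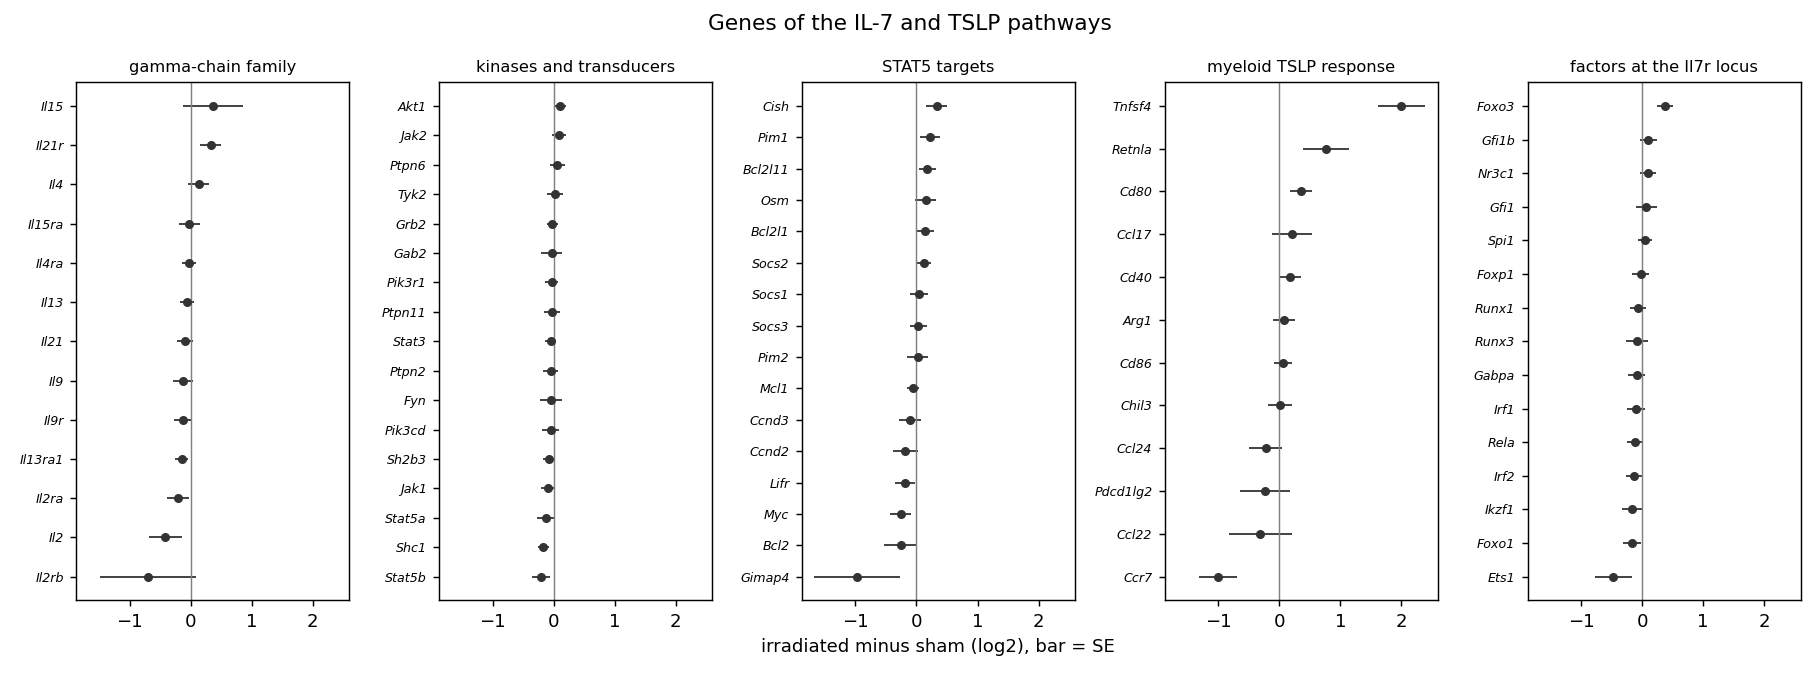
Difference of each measured pathway gene (irradiated minus sham, log2; point) with its SE (bar), in 5 panels by list, sorted within each panel. Farthest from 0 are Tnfsf4, 4.01-fold higher, and Ccr7 at -1.01 in the myeloid TSLP response list and Gimap4 at -0.97 among the STAT5 targets, and Retnla at 0.76 and Il2rb at -0.70 also lie away from the rest.

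The genes most like Il7r over the 8 arrays were sought among the 2539 genes with a mean at or above the median of all rows and an SD over the arrays of at least 0.3. The 6 with the highest r were 4632404H12Rik (0.93), the EGF-repeat gene Megf9 (0.92), the polysialyltransferase gene St8sia4 (0.88), the osteoclast fusion gene Ocstamp (0.88), the purine transporter gene Slc43a3 (0.87) and the ribosomal protein gene Rps15 (0.87). Within groups their r with Il7r ran from 0.70 to 0.86. The signals of 2 of them were low: Rps15 measured 4.12 to 5.12 and 4632404H12Rik 4.80 to 5.73 over the 8 arrays. The median of all rows was 4.70. St8sia4 stood at 9.43 to 9.64 in sham and 8.67 to 9.10 in irradiated mice and Ocstamp at 8.28 to 8.87 and 7.47 to 8.15, both without overlap. These genes were picked for their likeness to Il7r, so their lower levels in irradiated mice are no separate result.

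**Figure D4:**
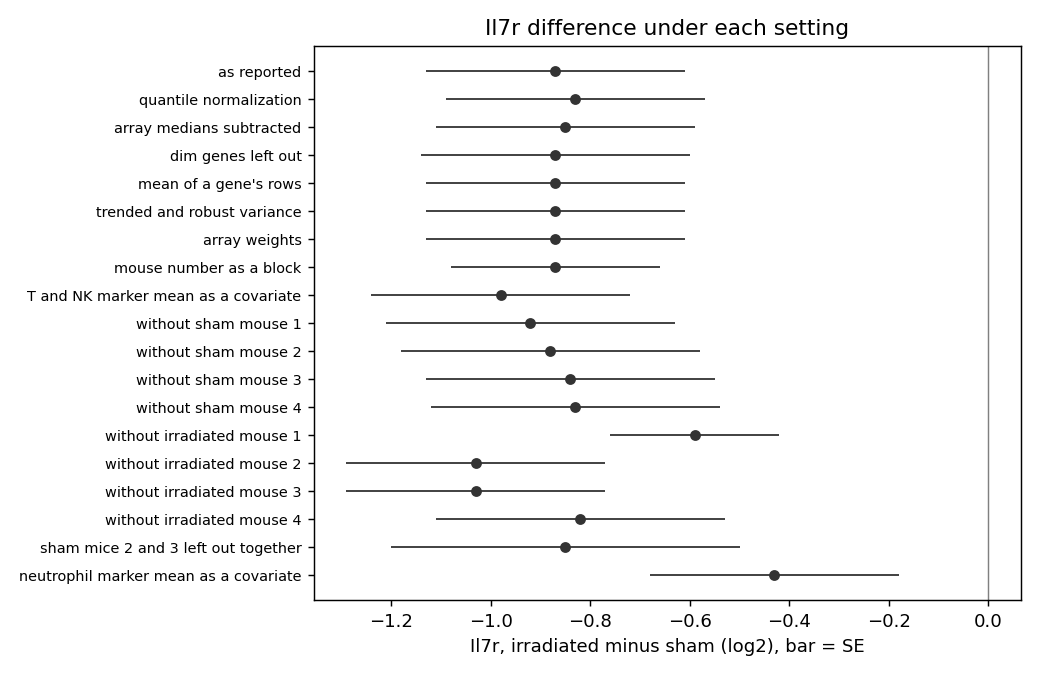
Il7r difference (irradiated minus sham, log2; point) with its SE (bar) as reported and under each alternative setting. All points lie below 0, from -1.03 without irradiated mouse 2 or 3 to -0.43 with the neutrophil marker mean as a covariate. Leaving out arrays could not bring a point above 0, as the groups did not overlap.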

How the data were processed

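Total RNA (25 ng per mouse) was amplified by ribo-SPIA and labelled with biotin, per the labels' protocols. The authors deposited log2 values for 34365 rows, made with RMA and Partek per the submitters' processing notes, with settings not given in the sources used here. RMA can compress low signals. Rows with 1 symbol were kept (23521), and the row with the highest mean per gene, which gave 22180 genes. Groups came from the sample titles, and no batch is named. The number of arrays limits the precision. All genes were fitted with limma 3.58.1 in R 4.3.3 (lmFit, eBayes, two-sided, Benjamini-Hochberg, threshold 0.05), tested on simulated data. The members, the 5 pathway lists and the 10 marker lists were chosen with earlier results of these data known. Named genes are the members, Cd3g and Nkg7, per pathway list the 4 with the smallest p and some fixed receptor, kinase and factor genes, defining markers and the 6 most like Il7r. Alternatives were other scalings, no dim genes, row means, other variance models, array weights, a block for the mouse number, marker covariates and arrays left out.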

Additional observations from a re-analysis of the deposited data

Results flagged for a closer look

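In 6 groups of 4 mice, 1 mouse stood apart from the other 3 by more than the 95% limit of Dixon's test. Chance alone gives about 1 in 20 such groups, and 116 were examined. Irradiated mouse 2 had an Il7 level of 3.25, where the rest of its group had 3.62 to 3.65. The same mouse had an Ets1 level of 5.78, against 6.44 to 6.54. Il2 stood at 4.34 in sham mouse 3, against 2.94 to 3.13. In sham mouse 4, Il15ra stood at 7.73 against 7.40 to 7.43, and Ocstamp at 8.87 against 8.28 to 8.33. In irradiated mouse 4, Jak2 stood at 10.74, against 10.32 to 10.37.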

How the results depend on the processing

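The Il7r difference was negative under each of the 18 alternatives run, from -1.03 to -0.59 with each array left out and -0.43 with the neutrophil mean as a covariate. Since the groups did not overlap, leaving out arrays could not change its sign. Other variance models, the replicate block, row means and leaving out dim genes could not move its value of -0.87. Only scalings, array weights and covariates could have changed the sign, so the 18 are not separate checks of direction. The count of genes past the adjusted threshold was 0 throughout, except 1 without irradiated mouse 1 (range 0 to 1 with each array left out) and 1 with the neutrophil mean as a covariate. Genes at an unadjusted p under 0.05 numbered 1347, against 801 of 12286 with dim genes left out, where fewer genes were tested, and 1093 to 1403 with each array left out. Mouse numbers did not pair the samples: same-numbered mice correlated at -0.28 to -0.14 in their deviations from group means, and with the replicate block Il7r differed by -0.87, 0 genes passed and 1065 had an unadjusted p under 0.05. The kinase list's median of -0.05 was 0.01 after quantile normalization and ran from -0.08 to 0.01 with each array left out. The factor list's median of -0.09 was -0.03 after quantile normalization and -0.01 without sham mice 2 and 3, and ran from -0.12 to 0.01 with each array left out. The cause of these shifts was not tested. The correlation of Il7r with Cd3g was -0.71, and that with Nkg7 -0.90, without sham mice 2 and 3, and ran from -0.24 to 0.18 and from -0.44 to 0.04 with each array left out. Of 844 values of the other 47 named genes under these alternatives, 835 moved by less than the gene's own SD between mice. A gene that varies widely can change sign within that limit, so the count does not measure stability of direction. Without sham mice 2 and 3, Cd3g went from -1.27 to 0.56 and Nkg7 from -0.40 to 1.11. The settings without sham mice 2 and 3 and with the neutrophil mean were chosen after seeing the data.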

Other observations

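Among the named genes, the one whose deviations from group means followed those of Il7r most closely was Il21r, at r = 0.96 over 8 arrays, although its group difference of 0.33 had the opposite sign to that of Il7r. The irradiated mice carried this value: r was 0.14 over the 4 sham arrays, which varied little in either gene. Irradiated mice 2 and 3, with the most Il7r of the irradiated mice (8.95 and 8.96), also had the most Il21r (9.05 and 9.01). For Tnfsf4, r with Il7r was 0.74 over the 4 irradiated arrays, -0.06 over the 4 sham arrays and -0.42 over all 8. Both were noticed after the values were seen.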
